A study of Drosophila melanogaster with 8 samples.

Results

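The mitochondrial genome of *Drosophila melanogaster* encodes a small set of transcripts, and all 38 features of the count matrix whose symbol starts with mt: were taken, of 17717 features in all. They comprise 13 protein-coding genes, 2 ribosomal RNA genes, 22 transfer RNA genes and mt:ori, the non-coding region that holds the origin of replication. They were followed in whole stage 17 embryos that had aged for 17 to 18.5 h at 25 degrees C and were dissociated with a dounce, passed through a filter without a sort, and profiled by droplet-based single-cell RNA sequencing with unique molecular identifiers (UMIs). All embryos were of a single condition and a single strain, which carried the drivers alrm-gal4 and 25H07-gal4 and the reporters UAS myr::GFP and UAS-redstinger::NLS, so that cell classes and not treatments were compared. The alrm driver marks astrocytes, and each preparation pooled many embryos. The 8 samples were merged into 1 matrix whose barcodes carry a number from 1 to 8 that no source ties to a sample. Numbers that differ by 4 shared nearly all of their barcodes (at least 99.6% of the smaller set) and were summed, which gave 4 library pairs and 38531 distinct cells, of which 33406 with 200 or more genes were kept.

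Mitochondria keep their own genome, which is transcribed from both strands into long precursors that are cut into messenger, ribosomal and transfer RNAs. Its messenger RNAs encode core subunits of the respiratory chain, while most of the chain, and all proteins of the mitochondrial ribosome, are encoded in the nucleus and imported. Tissues with a high demand for ATP, such as muscle, are known for their dense mitochondria. In single-cell data, a high mitochondrial share of the UMIs of a cell is also widely used as a sign of a damaged cell, and the study kept only cells under a limit of 10%. No such limit was set here.

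Classes were defined by 1 marker each: nSyb (synaptic vesicle fusion) for neurons, repo (a glial transcription factor) for glia, Mhc (muscle myosin) for muscle, NimC1 and NimC4 (phagocytic receptors) for hemocytes, CG7227 for fat body, and the sum of 26 Twdl genes (Tweedle cuticle proteins) for epidermis. A cell needed 2 or more UMIs of its class marker and fewer than 2 of every other. This gave 1606 muscle cells, 2733 hemocytes, 608 glia, 5239 neurons, 4187 epidermal cells and 1869 fat body cells, while 12900 cells reached no class and 4264 reached more than 1 and were left out of every class. Of further markers of each class, all 7 were highest in their own class for neurons, glia, muscle and epidermis and all 6 for hemocytes. In the fat body 5 of 7 were, with apolpp (a lipoprotein) at 6842 CPM, whereas FASN1 and Desat1, both of lipid synthesis, were highest in neurons. The class markers were also met outside their class, with a Mhc UMI in 15 to 18.1% of cells of the other 5 classes and a Twdl UMI in 26.8 to 33.4%. The share was 4.49 to 8.22% for nSyb and at most 5.48% for repo, NimC1 and CG7227, and NimC4 had a UMI in 7.73% of glia and 4.83% of neurons. Cells with 2 or more UMIs of another class marker were left out of the class by definition. These shares thus count only cells with 1 such UMI and do not give the full extent of marker RNA outside its class. The median cell of a class held 3070 (muscle) to 8230 UMIs (fat body).

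Only 15 of the 38 features carried more than 100 UMIs, and these were the 13 protein-coding genes and both ribosomal RNAs. All 22 transfer RNA features were at 0 of 243798407 UMIs, and mt:ori had 19 UMIs. The 0 allows up to 0.0123 CPM each among captured molecules. It sets no limit on RNAs without a poly(A) end, which this capture can miss. The large ribosomal RNA mt:lrRNA alone made up 61.6% ± 2.5 of the mitochondrial UMIs of kept cells (SD, n = 4 library pairs), and at least 1 of its UMIs was found in 100.0% of cells. In the mitochondrial coordinates of the Ensembl annotation (BDGP6.54, not the authors' own), it lies on the minus strand at positions 12735 to 14058. The small ribosomal RNA mt:srRNA, its neighbour on the same strand at 14131 to 14916, made up only 1.16% ± 0.07.

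Among the protein-coding genes, the 3 subunits of cytochrome c oxidase (complex IV) led. mt:CoIII held 8.26% ± 0.34 of mitochondrial UMIs, mt:CoII 7.25% ± 0.30 and mt:CoI 5.68% ± 0.37. mt:ATPase6, a membrane subunit of ATP synthase (complex V), held 4.44% ± 0.37, and mt:Cyt-b, the cytochrome b of complex III, 3.83% ± 0.17. The complex I subunits, of NADH dehydrogenase, were lower, with mt:ND5 at 1.66% ± 0.11, mt:ND1 at 1.62% ± 0.24, mt:ND4 at 1.61% ± 0.19 and mt:ND3 at 1.07% ± 0.13. The other 4 protein-coding genes were each under 1%, down to 0.02% for mt:ATPase8. These are shares of UMIs, which mark molecules captured at their poly(A) ends and are not corrected for length. mt:ATPase8 (positions 3907 to 4068) overlaps mt:ATPase6 (4062 to 4736), and mt:ND4L (9545 to 9835) overlaps mt:ND4 (8207 to 9545), each on the same strand. A molecule that spans both genes would be counted for the gene nearer its poly(A) end, which was not tested. Divided by annotated length, mt:lrRNA was also first at 34104 CPM per kb, and mt:CoII (7869) and mt:CoIII (7780) came next. Capture at 1 end of a molecule does not grow with its length, so this division favours short genes.

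The mitochondrial share of UMIs differed between classes, and muscle and fat body lay at the ends of the order. In muscle it was 7.18, 11.1, 12.3 and 14.8% in library pairs 1 to 4 (mean 11.4% ± 3.2, SD, n = 4). Hemocytes followed with 8.32, 8.76, 8.32 and 8.79% (8.55% ± 0.26), and glia with 5.03, 9.46, 8.87 and 9.70% (8.27% ± 2.18). Neurons had 5.40, 8.21, 7.69 and 7.73% (7.26% ± 1.26), epidermis 4.56, 6.61, 5.74 and 6.61% (5.88% ± 0.97), and fat body 3.98, 6.12, 5.15 and 5.73% (5.24% ± 0.93). Pair 1 was the lowest in every class but hemocytes, where pair 3 equalled it to the second decimal, and the SD of muscle was 1.87 without it. Over all UMIs of a class, counting error was far smaller than the spread between pairs, with Wilson 95% intervals of 10.78 to 10.82% for muscle and 4.95 to 4.96% for fat body.

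**Figure D1:**
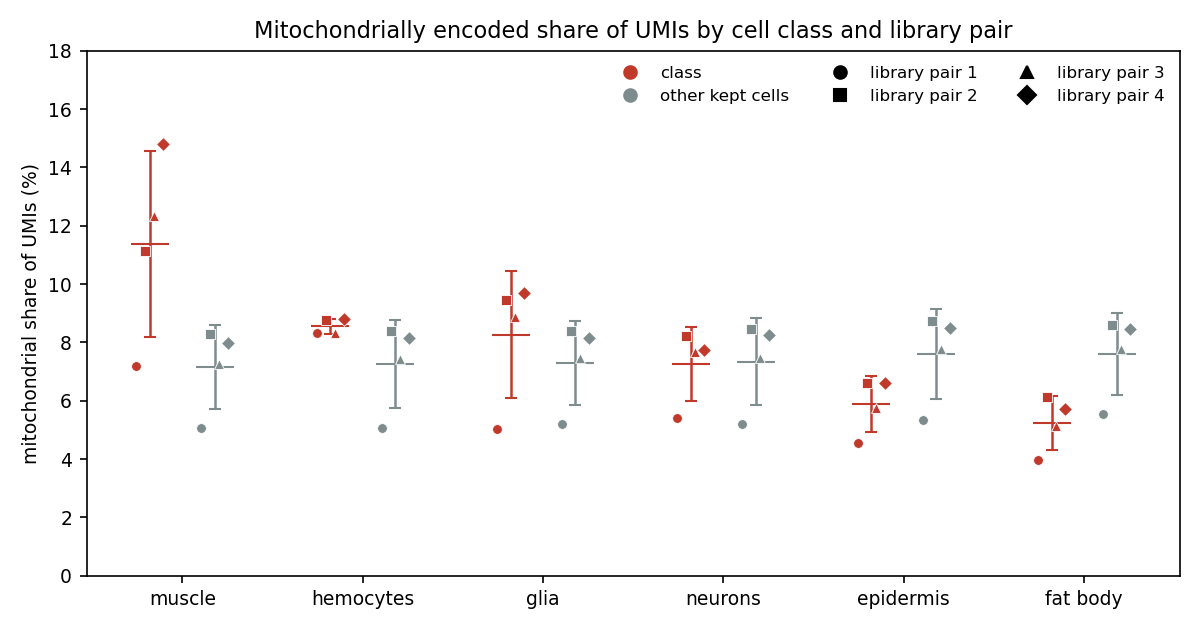
Mitochondrial share of UMIs (%) in each class (red) and in all other kept cells (grey). Symbols are the 4 library pairs and bars the mean ± SD (n = 4). In muscle, each pair lies above the grey value of the same pair, and in fat body and epidermis each pair lies below it. Pair 1 (circles) is low in most classes.

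Neighbouring classes in this order were mostly not separated. Each class was set against the others within each library pair as a log2 ratio of shares, and a difference was called where all 4 pairs had the same sign. An exact paired permutation test over 4 pairs cannot reach the threshold of 0.05, and no p-values were computed. The study describes 4 biological replicates, each sequenced on 2 lanes, which the 4 pairs match in number. No source ties a barcode number to one of them, so the spread between pairs may be technical. Of the 15 pairs of classes, 12 kept 1 direction in all 4 library pairs. The exceptions were muscle over hemocytes (0.36 ± 0.42, higher in 3 of 4 pairs), hemocytes over glia (0.10 ± 0.42, 1 of 4) and glia over neurons (0.16 ± 0.18, 3 of 4). The widest gap was muscle over fat body, with log2 ratios of 0.85, 0.86, 1.26 and 1.37 in pairs 1 to 4 and no overlap of the ranges.

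Against all other kept cells, the log2 ratio of the mitochondrial share was 0.65 ± 0.22 in muscle, with 11.4% ± 3.2 in muscle and 7.15% ± 1.44 in other cells, and was positive in 4 of 4 pairs. In hemocytes it was 0.26 ± 0.30 and also positive in 4 of 4 pairs, but 0.71 of pair 1 set this mean, and without that pair it was 0.11. Glia (0.16 ± 0.14, 3 of 4 pairs) and neurons (−0.01 ± 0.07, 2 of 4) were not called. The ratio was −0.36 ± 0.09 in epidermis and −0.53 ± 0.06 in fat body, negative in all 4 pairs. The comparisons share most of their other cells and are not independent of one another. The ratio of muscle depended on which cells were counted. It was −0.03 when cells that reached more than 1 class were counted in each of their classes, and 0.23 among cells under 10% mitochondrial UMIs. With only 1 number of each pair it was 0.31 (numbers 5 to 8) or 0.35 (numbers 1 to 4).

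A share also depends on how much other RNA a cell gave, and the number of mitochondrial UMIs per cell put the classes in another order. The median fat body cell held 677 ± 209 mitochondrial UMIs and 8846 ± 1836 others (SD, n = 4 pairs), the most of any class on both counts. The median glial cell held 579 ± 195 mitochondrial UMIs, the median muscle cell 408 ± 132, the median epidermal cell 370 ± 99, the median hemocyte 331 ± 51 and the median neuron 262 ± 71. Muscle had the fewest other UMIs, with 2378 ± 316 per median cell. The class with the lowest mitochondrial share was thus the class with the most mitochondrial UMIs per cell.

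From 1000 UMIs up, depth of the cell moved with the share in every class. Cells under 1000 UMIs were left out of these bins. Their share was 15.4% in 134 muscle cells, 23.2% in 23 fat body cells and 17.2% in 348 epidermal cells, each lower than at 1000 to 2500 UMIs. In 59 neurons it was 14.9%, which was higher. In fat body, cells of 1000 to 2500 UMIs had 27.2% mitochondrial UMIs and cells of 10000 or more had 4.15%, and in epidermis the values were 18.6% and 3.78%. In muscle they were 21.1% and 6.58%, in neurons 12.0% and 5.38%, and in hemocytes 12.5% and 7.81%. Glia had 11.5% in the shallowest bin, 13.4% in the next and 6.89% in the deepest. The fold between shallow and deep cells was thus widest in fat body and narrowest in hemocytes and glia. Cells that reached no class were the shallowest, with a median of 2092 UMIs and a mitochondrial share of 12.3% ± 2.7.

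**Figure D2:**
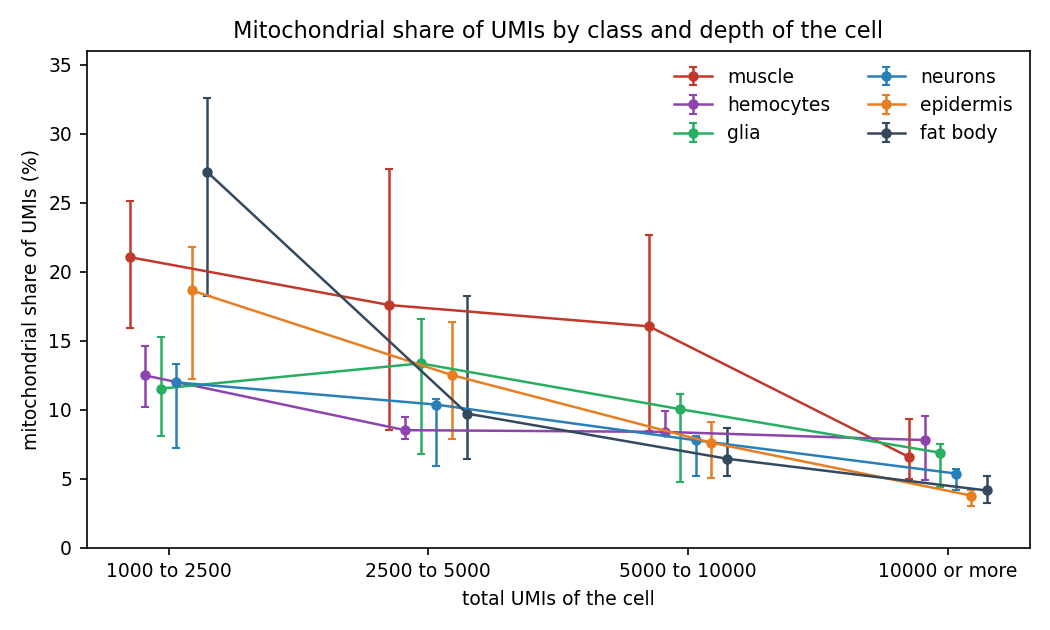
Mitochondrial share of UMIs (%) of each class in 4 bins of total UMIs per cell. Points are pooled over library pairs and bars run from the lowest to the highest pair. The pooled share of muscle stays high up to 10000 UMIs. Fat body, at 27.2% in the shallowest bin and 4.15% in the deepest, changes its place in the order.

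Within bins of equal depth, muscle alone was above other kept cells in all 4 pairs in each bin, with log2 ratios of 0.28 ± 0.07 at 1000 to 2500 UMIs, 0.82 ± 0.44 at 2500 to 5000, 0.89 ± 0.35 at 5000 to 10000 and 0.59 ± 0.29 at 10000 or more. Fat body was above other cells in the shallowest bin (0.65 ± 0.11, 4 of 4 pairs) and below them at 5000 to 10000 UMIs (−0.28 ± 0.12, 0 of 4) and at 10000 or more (−0.10 ± 0.07, 0 of 4). Neurons were below other cells in the 3 shallower bins (−0.86 ± 0.13, −0.38 ± 0.14 and −0.33 ± 0.05) and above them in the deepest (0.17 ± 0.10, 4 of 4 pairs). Glia and hemocytes went the same way as neurons in the shallowest bin (−0.68 ± 0.25 and −0.50 ± 0.16) and in the deepest (0.51 ± 0.14 and 0.67 ± 0.27), where 1 pair held only 7 hemocytes. Epidermis was above other cells at 2500 to 5000 UMIs (0.13 ± 0.11, 4 of 4 pairs) and below them in the 2 deeper bins (−0.21 ± 0.13 and −0.34 ± 0.09, 0 of 4). Each class other than muscle thus changed direction between bins, and the part of cell depth and of free RNA in the order of the classes was not tested.

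The 15 measured transcripts did not move as 1 block. In muscle, 9 of 15 took a larger share of all UMIs than in other kept cells in all 4 pairs and none a smaller one, where 15.9% of all features tested were higher and 41.0% lower in this way. The large ribosomal RNA led, with 5.11, 7.92, 9.04 and 11.3% of all UMIs in muscle, against 3.28, 4.87, 4.31 and 4.83% in other cells, a log2 ratio of 0.91 ± 0.28. mt:srRNA followed at 0.77 ± 0.37 and mt:ND1, a complex I subunit, at 0.49 ± 0.15. The oxidase subunits and mt:Cyt-b were not called, from −0.09 ± 0.17 for mt:CoIII to 0.10 ± 0.12 for mt:CoI. For the 13 protein-coding genes together the muscle ratio was only 0.09 ± 0.14, with 2.89% ± 0.61 in muscle and 2.74% ± 0.69 in other cells, and 3 of 4 pairs higher.

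In fat body, all 15 measured transcripts took a smaller share than in other kept cells in all 4 pairs, where 58.2% of all features tested were lower in this way. Only mt:CoIII and mt:Cyt-b passed 2-fold, as did 46.0% of all features, and 4 transcripts did when CPM was taken over UMIs that are not mitochondrial. mt:CoIII made up 0.186, 0.319, 0.277 and 0.306% of fat body UMIs, against 0.465, 0.753, 0.671 and 0.721% in other cells, with no overlap and a log2 ratio of −1.27 ± 0.04. The ratio was −1.16 ± 0.10 for mt:Cyt-b, −0.97 ± 0.01 for mt:CoII and −0.97 ± 0.05 for mt:CoI, but only −0.48 ± 0.11 for mt:ND5, −0.51 ± 0.09 for mt:ND1 and −0.32 ± 0.08 for mt:lrRNA. The protein-coding genes together fell further than the total, to 1.51% ± 0.38 in fat body, against 2.91% ± 0.64 in other cells (log2 ratio −0.95 ± 0.06, lower in 4 of 4 pairs).

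In hemocytes the protein-coding transcripts were higher and the ribosomal RNAs were not called. The 12 transcripts with a larger share in all 4 pairs, where 14.6% of all features were higher in this way, comprised every protein-coding gene but mt:ATPase8 and were led by mt:CoIII. It made up 0.757, 0.933, 0.910 and 0.999% of hemocyte UMIs, against 0.390, 0.710, 0.608 and 0.661% in other cells (log2 ratio 0.63 ± 0.24). The log2 ratio was 0.08 ± 0.39 for mt:lrRNA and 0.15 ± 0.36 for mt:srRNA. The protein-coding genes together made up 3.77% ± 0.53 in hemocytes and 2.69% ± 0.68 in other cells (0.51 ± 0.21, higher in 4 of 4 pairs).

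In neurons 7 transcripts were higher and 4 lower in all 4 pairs, a split not far from that of all features, of which 42.8% were higher and 37.1% lower. mt:CoIII (0.33 ± 0.08), mt:CoII (0.30 ± 0.08), mt:Cyt-b (0.26 ± 0.08) and mt:CoI (0.25 ± 0.08) were among the higher ones. mt:lrRNA (−0.16 ± 0.07), mt:srRNA (−0.19 ± 0.09) and mt:ND1 (−0.17 ± 0.08) were lower, as was mt:ATPase8, the smaller membrane subunit of ATP synthase. In epidermis 8 transcripts were lower in all 4 pairs and none higher, where 68.5% of all features were lower and 12.9% higher in this way, with mt:lrRNA at −0.50 ± 0.07 and mt:CoIII, not called, at −0.02 ± 0.19. In glia 4 of 15 transcripts were higher in all 4 pairs, not far from the 19.4% of all features that were higher in this way. They were mt:ND1, mt:ND3, mt:ND4 and mt:ND6 of complex I, from 0.16 ± 0.10 to 0.24 ± 0.13. The complex I part of protein-coding mitochondrial UMIs was nearly the same in glia (20.6% ± 0.9) and in other kept cells (20.7% ± 1.1), and higher in 1 of 4 pairs.

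**Figure D3:**
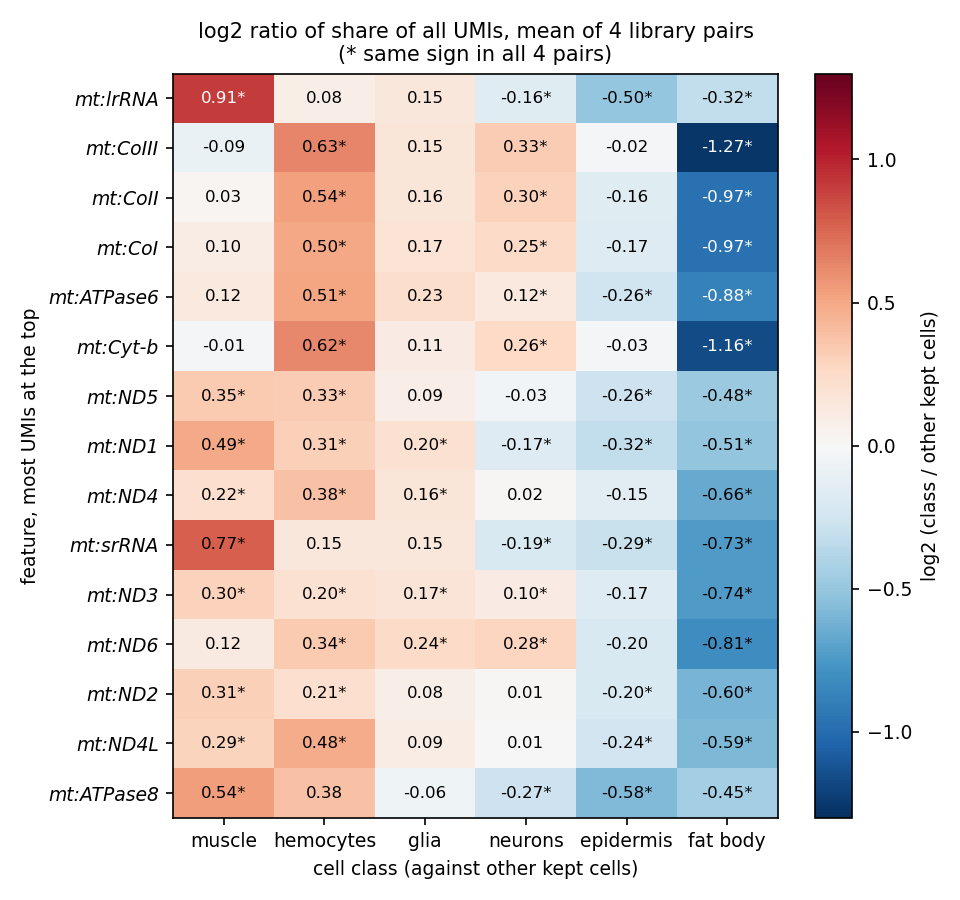
log2 ratio of the share of all UMIs, class over other kept cells, for the 15 mitochondrially encoded transcripts with more than 100 UMIs (rows) in the 6 classes (columns). Values are means of 4 library pairs and an asterisk marks the same sign in all 4. Fat body is lower for every transcript (−1.27 for mt:CoIII), and in muscle mt:lrRNA leads at 0.91.

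The composition of the mitochondrial UMIs, which is computed without nuclear UMIs, also differed between classes, with muscle and fat body at the upper end for mt:lrRNA. mt:lrRNA made up 71.1, 71.1, 73.2 and 76.0% of mitochondrial UMIs in muscle, against 64.5, 58.8, 59.4 and 60.6% in other kept cells. In fat body its share was 74.9, 69.1, 68.0 and 69.8% (70.4% ± 3.1). The values of these 2 classes lay above those of all others in every pair, since glia had 61.4% ± 2.8, epidermis 56.5% ± 1.8, neurons 56.2% ± 2.2 and hemocytes 54.9% ± 5.3. Hemocytes of pair 1 stood apart at 62.8%, and the other pairs lay between 51.7 and 52.7%. This share moved with depth as well, with 46.3% in neurons of 1000 to 2500 UMIs and 60.6% in neurons of 10000 or more, and 62.2% and 77.0% in muscle cells of the same bins. In fat body it was 73.3, 62.6, 65.4 and 72.7% from the shallowest to the deepest bin.

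Within the protein-coding transcripts, complex I made up a larger part in the same 2 classes. Its 7 subunits held 25.9% ± 1.7 of protein-coding mitochondrial UMIs in fat body, against 20.4% ± 1.2 in other kept cells, a difference of 5.52 ± 0.72 percentage points, and 24.1% ± 2.2 in muscle, against 20.6% ± 1.1 (3.57 ± 1.22 points). In neurons it held 18.3% ± 1.3, against 21.1% ± 1.3, and in hemocytes 18.2% ± 1.3, against 20.9% ± 1.1, lower in all 4 pairs in both. Complex IV ran the other way. It held 52.5% ± 2.1 in fat body, against 57.3% ± 1.2 in other cells, and 59.8% ± 1.6 in neurons, against 56.6% ± 1.3. Both differences had the same sign in all 4 pairs.

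**Figure D4:**
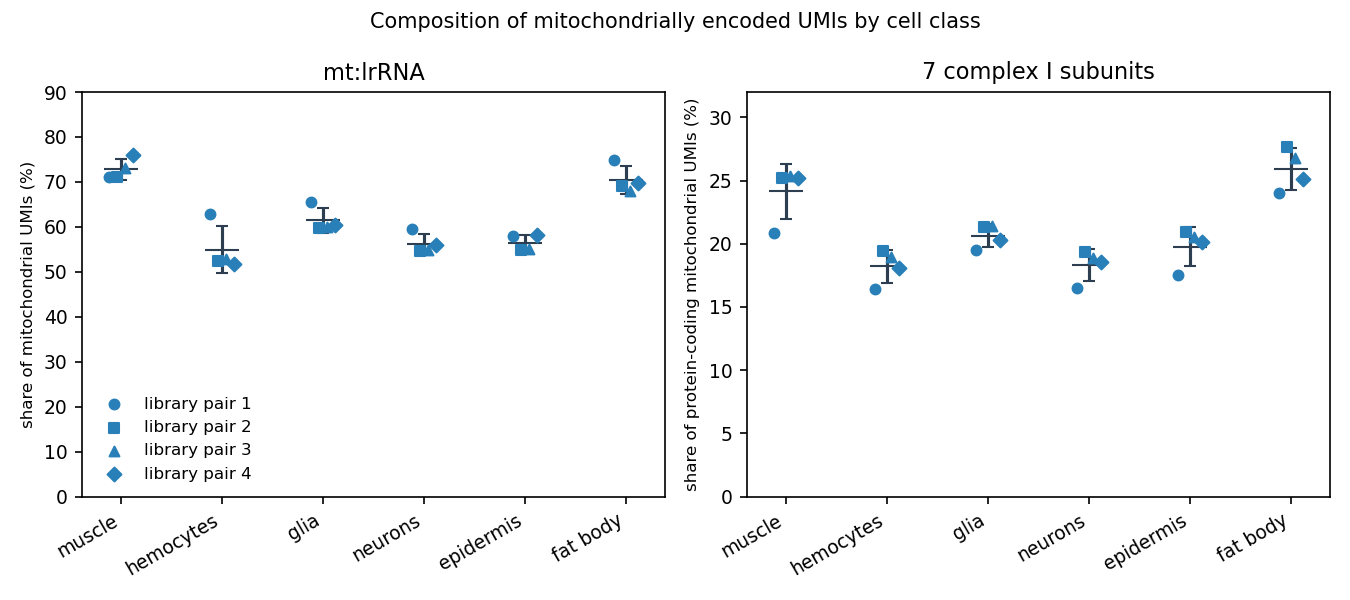
Left, share of mt:lrRNA among mitochondrial UMIs (%). Right, share of the 7 complex I subunits among protein-coding mitochondrial UMIs (%). Symbols are the 4 library pairs and bars the mean ± SD (n = 4). Muscle and fat body are the highest classes in both panels, at 72.9 and 70.4% on the left and 24.1 and 25.9% on the right.

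The strand of origin moved with the complexes. The 4 protein-coding genes of the minus strand (mt:ND1, mt:ND4, mt:ND4L and mt:ND5) all belong to complex I. They made up 17.2% ± 1.4 of protein-coding UMIs in fat body, against 12.95% ± 0.70 in other kept cells, and 15.8% ± 1.6 in muscle, against 13.1% ± 0.6. Both were higher in 4 of 4 pairs. mt:ND5 showed this in fat body with 5.69, 6.24, 6.24 and 6.01% of protein-coding UMIs, against 4.31, 4.28, 4.45 and 4.41% in other cells. The plus-strand complex I genes mt:ND2, mt:ND3 and mt:ND6 also took a larger part in fat body, with log2 ratios of 0.35 ± 0.14, 0.22 ± 0.05 and 0.15 ± 0.11, each higher in 4 of 4 pairs.

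The nuclear-encoded subunits of the same complexes were then examined, from lists given by symbol, as CPM over UMIs that are not mitochondrial. Of 68 nuclear respiratory chain genes tested, 67 were higher in fat body in all 4 pairs and 32 passed 2-fold, with a median log2 ratio of 0.99, where the median of all features was −0.90, 26.9% were higher in all 4 pairs and 14.0% passed 2-fold. The 13 mitochondrially encoded protein-coding genes had a median of −0.77 in the same cells. ATPsynC, the ring subunit of ATP synthase, reached 6053 ± 517 CPM in fat body, against 2303 ± 132 in other kept cells (log2 ratio 1.39 ± 0.19). blw, its alpha subunit, had a ratio of 1.25 ± 0.22, Cyt-c1 of complex III 1.31 ± 0.21, COX4 of complex IV 1.00 ± 0.19, and the complex I subunits ND-B14.5A and ND-19 1.37 ± 0.19 and 1.36 ± 0.24. The exception was ND-51L1 at −2.72 ± 0.96, a paralog counted at under 1 CPM in either group. All 4 subunits of complex II, which has no mitochondrially encoded member, were higher but under 2-fold, from SdhA (0.15 ± 0.10) to SdhC (0.56 ± 0.13).

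In muscle the medians of both sets were above 0, at 0.29 for the mitochondrially encoded protein-coding genes. Of the nuclear respiratory chain genes, 67 of 68 were higher in all 4 pairs and 4 passed 2-fold, where 17.3% and 6.73% of all features did, with a nuclear median of 0.72 and −0.29 for all features. Those 4 were the complex II subunits, with SdhA at 180 ± 10.5 CPM in muscle, against 77.3 ± 4.0 in other cells (log2 ratio 1.22 ± 0.10), and SdhD, SdhC and SdhB at 1.25 ± 0.24, 1.14 ± 0.28 and 1.08 ± 0.23. The highest of the other complexes were ATPsynF (0.94 ± 0.39), COX5B (0.93 ± 0.38), the acyl carrier protein ND-ACP (0.91 ± 0.35) and the Rieske protein RFeSP (0.74 ± 0.31), and the lowest was ND-AGGG (0.15 ± 0.10). Cytochrome c (Cyt-c-p) was higher in both muscle (0.57 ± 0.15) and fat body (0.37 ± 0.24).

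In hemocytes and neurons the medians of the 2 sets had opposite signs, and in epidermis and glia the same sign. In hemocytes 66 of 68 nuclear respiratory chain genes were lower in all 4 pairs (41 past 2-fold, where 60% of all features were lower and 47.7% past 2-fold), with a median of −1.12 and −1.11 for all features, while the mitochondrially encoded protein-coding median was 0.41. In epidermis all 68 were lower (62 past 2-fold, with 69.2% and 47.6% of all features), with a median of −1.32, where that of all features was −1.003, and −0.23 for the mitochondrially encoded ones. In neurons 63 were lower (13 past 2-fold, with 37.1% and 26.4% of all features), with medians of −0.85 and 0.10, where the median of all features was 0.03. In glia 37 were higher and 1 passed 2-fold, with 19.7% and 8.98% of all features and medians of 0.43 and 0.17, where that of all features was −0.37. Total nuclear respiratory chain RNA was 52034 ± 3993 CPM in fat body, 46964 ± 6532 in muscle, 39807 ± 4725 in glia, 17972 ± 456 in neurons, 14494 ± 611 in hemocytes and 12818 ± 1111 in epidermis.

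**Figure D5:**
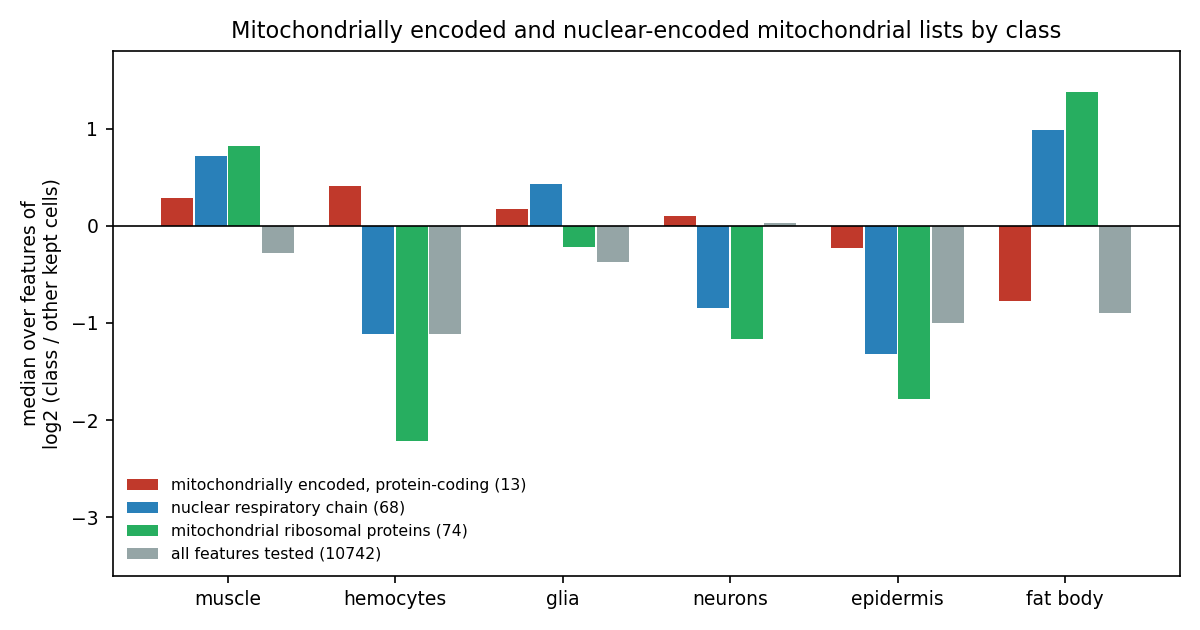
Median log2 ratio, class over other kept cells, of 4 sets of features, each the mean over 4 library pairs before the median was taken, as CPM over UMIs that are not mitochondrial. In fat body the mitochondrially encoded set lies at −0.77 and the nuclear respiratory chain at 0.99, where all features lie at −0.90. In hemocytes they lie at 0.41 and −1.12, the second of which is close to the −1.11 of all features.

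Genes that make and translate the mitochondrial transcripts were examined last. Of 74 mitochondrial ribosomal protein genes tested, 74 were higher in fat body in all 4 pairs (69 past 2-fold, median 1.37), where 26.9% of all features were higher and 14.0% past 2-fold, led by mRpL20 (1.72 ± 0.34) and mRpL47 (1.69 ± 0.32). In muscle 68 were higher (6 past 2-fold, median 0.82), where 17.3% and 6.73% of all features were, led by mRpL10 (1.16 ± 0.39) and mRpL12 (1.11 ± 0.44). mRpS5 was the lowest in both, at 0.33 ± 0.06 and 0.18 ± 0.28. In hemocytes 70 of 74 were lower past 2-fold (median −2.21), as were 47.7% of all features (median −1.11). In epidermis 72 were (−1.78), with 47.6% of all features (−1.003), in neurons 51 (−1.16), with 26.4% of all features (0.03), and in glia 2 (−0.22), with 27.2% of all features (−0.37). Of 10 genes for mitochondrial RNA synthesis and processing, all 10 were higher in fat body in all 4 pairs (7 past 2-fold), where 26.9% and 14.0% of all features were, with bsf, an RNA-binding protein, at 107 ± 9 CPM in fat body, against 37.1 ± 5.0 in other cells (1.53 ± 0.30), and MTPAP, the mitochondrial poly(A) polymerase, at 1.38 ± 0.55. In muscle 8 of 10 were higher and 1 passed 2-fold, with 17.3% and 6.73% of all features. There TFAM, which packages the mitochondrial genome, passed 2-fold at 89.1 ± 7.1 CPM, against 43.5 ± 12.1 (1.07 ± 0.29), whereas mtTFB2, a transcription factor, was at 0.02 ± 0.39.

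The classes had another order for heat shock genes, many of which encode chaperones and respond to stress. Their summed level was 689 ± 42 CPM in neurons, against 150 ± 14 in other kept cells. Of the 15 listed genes, 9 had enough UMIs to be tested. In neurons 8 of these were higher in all 4 pairs, where 4598 of 10742 features were, and 1 was lower, at −2.22. It was 134 ± 5 CPM in glia, 103 ± 36 in hemocytes and 68.1 ± 16.9 in epidermis. Neurons are among the other kept cells of every class but their own. In muscle the summed level was 82.6 ± 12.3 CPM, against 216 ± 48 in other cells. In fat body it was 80.0 ± 6.0 CPM, against 227 ± 46 in other cells, and Hsp67Bc and Hsp23, which encode small heat shock proteins, were lower there (−6.14 ± 1.35 and −5.39 ± 2.10) and in muscle (−3.18 ± 1.23 and −2.32 ± 1.15). Other members of the list lay apart, with DnaJ-1 at 0.08 ± 0.16 and CG4456 at 1.56 ± 0.56 in fat body, and DnaJ-1 at −0.34 ± 0.20 and Hsp68 at 0.36 ± 1.66 in muscle.

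Per cell, a mitochondrial limit of 10% would remove very different parts of the classes. It was reached by 26.1, 66.7, 51.7 and 63.5% of muscle cells in pairs 1 to 4, a mean of 52.0% ± 18.4. The mean over pairs was 38.0% ± 9.8 of epidermal cells, 34.2% ± 16 of glia, 26.4% ± 11.4 of neurons, 24.9% ± 9.6 of fat body cells and 23.6% ± 3.9 of hemocytes, so that most neighbours differed by less than their spread. Over all pairs together, 760 of 1606 muscle cells reached it (47.3%, exact 95% interval 44.9 to 49.8%, counting error only) and 20.1% of fat body cells, of which pair 1 supplied 924 of 1869. Pair 1 was far below the others in 5 classes, with 10.0% of neurons, against 27.8 to 35.9% in the other pairs, and 11.0% of glia, against 37.2 to 47.0%. Hemocytes lay between 19.9 and 27.3% in all 4.

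At the far end of the scale, 992 of the kept cells (2.97%) had at least 50% mitochondrial UMIs, among them 8.8% ± 4.1 of muscle cells, against 0.31% ± 0.22 of hemocytes. They held a median of 1394 mitochondrial and 632 other UMIs, and mt:lrRNA made up 76.6% of their mitochondrial UMIs, where it made up 54.3% in cells of 10 to 20% and 63.1% in cells under 5%. In pair 1 the same cells had 58.7% mt:lrRNA and 670 CPM of heat shock RNA, against 95.9 to 202 CPM in the other pairs. The heat shock level of pair 1 was 124, 172, 229, 545 and 670 CPM in cells of under 5%, 5 to 10%, 10 to 20%, 20 to 50% and 50% or more, an order that no other pair had.

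Lastly, the 2 numbers of a library pair were compared, since they list the same cells. The mitochondrial share was higher under the numbers 5 to 8 than under 1 to 4 in all 4 pairs, with 5.76, 9.26, 8.26 and 9.03%, against 4.66, 7.49, 6.66 and 7.28%, a ratio of 1.24 in each pair. The ratio was 1.21 to 1.27 in the 6 classes over the 4 pairs, and 93.1% or more of the cells of a class and pair had the higher share under the higher number. All 15 measured transcripts shared this direction, from a log2 ratio of 0.19 ± 0.01 for mt:srRNA to 0.45 ± 0.01 for mt:ND1. Among all features tested the median was 0.02 and the middle 90% ran from −0.41 to 0.33. Comparisons between classes used the sum of both numbers. With the numbers 5 to 8 alone the log2 ratio of muscle over other cells was 0.31, and with 1 to 4 alone 0.35, where the sum gave 0.65. The labels name lanes L1 and L2 of each library. The study sequenced the libraries of 4 replicates on 2 lanes each, and the 2 numbers of a pair shared nearly all barcodes, as lanes of 1 library would. No source ties a number to a lane, but the same molecule is then likely counted under both. In that case UMIs per cell are too high, 1 molecule can pass the minimum of 2 marker UMIs, and counting intervals are too narrow.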

How the data were processed

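The authors deposited 1 matrix of UMI counts, made with Cell Ranger 3.1.0 (build BDGP6 per the labels) and merged with its aggregate function. Whether that step equalised depth is not given in the sources used here. The counts were used as deposited. Barcode numbers n and n + 4 were summed per barcode, cells under 200 genes were left out, and no doublet caller was run. Shares were sums of UMIs over the cells of a class within each of 4 library pairs. For features with at least 100 UMIs, log2 ratios of CPM were taken with 0.5 UMI added to each sum. A feature passed 2-fold where the mean was at least 1 in size and all 4 pairs had the same sign. This step was tested on simulated data. Members, lists and classes were chosen with earlier results of these data known. Named are transcripts with at least 1% of mitochondrial UMIs, others where they bear on a count and, per nuclear list, those among the 2 highest and 2 lowest in muscle and fat body. The Twdl marker of epidermis was a choice made here. Hsp67Bb was matched as CG4456 by synonym. Alternatives changed the marker minimum, gene limits, depth, cells compared, feature set and library pairs. Python 3.11.15, numpy 2.4.6, scipy 1.17.1 and pandas 2.3.3 were used.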

Additional observations from a re-analysis of the deposited data

Results flagged for a closer look

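Library pair 1 lay apart from the other 3 in 7 of 36 sets of 4 values, judged by its gap to the nearest value relative to the whole range, where chance alone gives about 1 in 20. Many of these sets share cells and UMIs and are not independent, so 1 unusual pair can be flagged in several of them. Its median depth was 2618 UMIs per neuron and 3724 UMIs per hemocyte, the lowest in both classes. mt:lrRNA made up 65.6% of mitochondrial UMIs in its glia and 62.8% in its hemocytes, the highest in both, and the protein-coding mitochondrial genes made up 1.68% of all UMIs in its glia, the lowest. Only 23.4% of its epidermal cells reached 10% mitochondrial UMIs. The log2 ratio of the mitochondrial share between its hemocytes and its other kept cells was 0.714, and 0.06 to 0.16 in the other pairs.

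The 5125 barcodes under 200 genes entered no comparison. Their UMIs were 90% mitochondrial, against 7.38% in the kept cells, and in pair 1 the share was 66.9%. mt:lrRNA made up 83.3% of these mitochondrial UMIs, at a median of 1568 UMIs and 100 genes per barcode.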

How the results depend on the processing

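Leaving out each library pair in turn kept the direction of the log2 ratios of the mitochondrial share, class over other kept cells, except for neurons, which were not called. In the called classes this direction was fixed beforehand, since a call needed the same sign in all pairs, and only the sizes are informative. The ratios ranged from 0.56 to 0.72 in muscle, 0.11 to 0.33 in hemocytes, 0.12 to 0.23 in glia, −0.03 to 0.02 in neurons, −0.40 to −0.33 in epidermis and −0.55 to −0.51 in fat body. The share of cells at 10% or more ranged from 47.1 to 60.7% in muscle, 22.4 to 24.9% in hemocytes, 30 to 42.0% in glia, 23.2 to 31.8% in neurons, 35.9 to 42.8% in epidermis and 22.2 to 29.5% in fat body.

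Of 96 log2 ratios under other settings, 30 stayed within the spread between pairs, 55 moved past it and 11 changed sign in a called class. The sign differed from that of the ratio reported in 23 of 96 values. Of these, 11 were in the 4 classes that were called (6 in hemocytes, 2 in fat body, 2 in epidermis and 1 in muscle). The other 12 were in glia (7) and neurons (5), which were not called. The cause was not tested. With a marker minimum of 1 UMI they were 1.01 in muscle, 0.34 in glia, 0.15 in neurons, 0.01 in epidermis and −0.09 in fat body. With 3 UMIs they were −0.12 in neurons, −0.54 in epidermis and −0.75 in fat body, and with 10 UMIs, a setting added after the data were seen, 0.34 in muscle, −0.34 in glia, −0.43 in neurons, −0.69 in epidermis and −1.10 in fat body. Among cells of 1000 to 5000 UMIs they were −0.66 in hemocytes, −0.18 in glia, −0.55 in neurons, 0.14 in epidermis and 0.45 in fat body. As the mean over 4 depth bins, also added later, they were −0.08 in hemocytes, −0.02 in glia, −0.35 in neurons, −0.09 in epidermis and 0.13 in fat body, while muscle stayed at 0.65. As medians over cells they were −0.19 in hemocytes, −0.04 in glia, −0.26 in neurons and −0.06 in epidermis. With the marker lists in place of single markers they were −0.10 in neurons, −0.83 in epidermis and −0.36 in fat body. Counting cells in each of their classes gave −0.03 in muscle, −0.03 in hemocytes, −0.32 in glia, −0.42 in neurons, −0.66 in epidermis and −0.73 in fat body. Under 10% mitochondrial UMIs they were 0.23 in muscle, 0.40 in glia, 0.23 in neurons and −0.14 in fat body. Against the other 5 classes neurons were at 0.10. A minimum of 50 genes gave −0.18 in hemocytes, −0.27 in glia, −0.48 in neurons, −0.66 in epidermis and −0.97 in fat body, and a minimum of 500 gave 0.30 in glia, 0.15 in neurons and −0.42 in fat body. A maximum of 3000 genes gave −0.15 in hemocytes, −0.17 in glia, −0.26 in neurons, −0.54 in epidermis and −0.40 in fat body. The numbers 5 to 8 alone gave 0.31 in muscle, −0.12 in neurons, −0.51 in epidermis and −0.72 in fat body, and the numbers 1 to 4 alone 0.35, −0.13, −0.55 and −0.71 in the same classes. The protein-coding genes alone gave 0.09 in muscle, 0.22 in neurons, −0.14 in epidermis and −0.95 in fat body.

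The share of cells at 10% or more moved in 8 of 48 values. It was 38.7% in fat body with a marker minimum of 1 UMI, 73.3% in fat body and 55.1% in epidermis among cells of 1000 to 5000 UMIs, 37.9% in fat body and 24.3% in epidermis with marker lists, 27.7% in epidermis with a minimum of 500 genes, and in hemocytes 32.1% with the numbers 5 to 8 and 18.1% with 1 to 4. Depth limits which cells reach a class at all, since cells of no class had a median of 2092 UMIs.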
